A study of Rattus norvegicus with 6 samples.

Results

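Collagens are the triple-helical proteins of the extracellular matrix, and their genes were examined in RNA sequencing of cultured neonatal rat ventricular myocytes, muscle cells from newborn rat hearts. All rows of the deposited expression table whose symbol is Col followed by a digit were taken, which gave 27 of 13843 rows and 26 distinct symbols. One of them, Col4a3bp, is no collagen chain but encodes a ceramide transfer protein, so 26 rows of 25 chains remain: 10 fibrillar, 6 of basement membranes and 10 of other kinds. The 6 libraries fall into 3 groups of 2, and all cultures were exposed for 3 days to phenylephrine (PE), which stimulates alpha-adrenergic receptors and makes cardiomyocytes grow, along with a short hairpin RNA. The PE group carried a control hairpin, the PE+TSA group TSA and the control hairpin, and the PE+TSA+shJIP1 group TSA and a hairpin against JIP1. The labels do not spell out TSA, the usual abbreviation of trichostatin A, which blocks histone deacetylases. JIP1 is a scaffold of the JNK kinase cascade encoded by Mapk8ip1. The labels call the hairpin group a knockout in one field and a hairpin in another, and give neither the hairpin's sequence nor its vector. The labels do not tell whether both libraries of a group represent separate cultures; p-values thus reflect only how far these samples spread, possibly for technical reasons.

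A collagen molecule is made of 3 chains wound around one another. Fibrillar chains, of which Col1a1 and Col3a1 are the best known, are secreted as procollagens, trimmed at both ends and packed into the fibrils that give the heart its tensile strength, and type V and type XI chains sit in the core of those fibrils and limit their width. Type IV chains form the sheet-like network of basement membranes, which surrounds each cardiomyocyte and lines its vessels. In the heart, fibrillar collagen is made mainly by fibroblasts, and such cultures usually hold some non-muscle cells.

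Values are FPKM (fragments per kilobase of transcript, scaled to library size), a unit meant for comparing genes. Some rows may be failed estimates, as described below for Col1a2, Rpl32 and Ppia, so comparisons between genes, shares and sums are uncertain. Whole-read steps at 501 rows with low values in PE replicate 2 put that library at 0.0481 of the depth of PE replicate 1. With this depth, the scaled ratio of PE replicate 1 to PE replicate 2 lay within 0.05 of a whole number for 394 rows. The depth was chosen for such steps, so this count is no separate support. By the most frequent ratio of low values, the other 4 libraries lay between 0.72 and 1.34 of PE replicate 1. In sample order, 35 of 352, 29 of 352, 48 of 297 and 21 of 208 rows lay at that ratio. PE replicate 2 listed 3667 rows at 0 and the other 5 libraries 1407 to 1837. The hairpin's target Mapk8ip1 was at 3.77 and 4.39 FPKM under PE, 14.6 and 17.9 under PE+TSA and finally 1.8 and 3.65 under PE+TSA+shJIP1. It therefore lay lower in both hairpin libraries than in the other 4, although the difference from PE+TSA missed the threshold over all features (limma adjusted p = 0.077). Cardiomyocyte markers were abundant in all libraries: the troponin gene Tnnt2 ranged from 1835 to 7215 FPKM.

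The collagen chains spanned a wide range of levels. Of the 26 rows, 14 had a mean of at least 5 FPKM, 3 lay between 1 and 5 FPKM, and 9 lay below the mean of 1 FPKM required for testing. The 17 rows tested are therefore not all collagens, and counts over them are descriptions. Col1a1 alone gave 36.4% to 52.3% of the summed collagen FPKM of a library, and the 6 rows with the highest means together 82.9% to 89.8%. Col1a2, listed at or near 0 (below), adds next to nothing to these sums. RefSeq's rat gene table (assembly GRCr8) lists 44 collagen symbols; the 19 without a row, among them Col4a2, Col6a1, Col6a3 and Col12a1, were not analysed here.

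**Figure D1:**
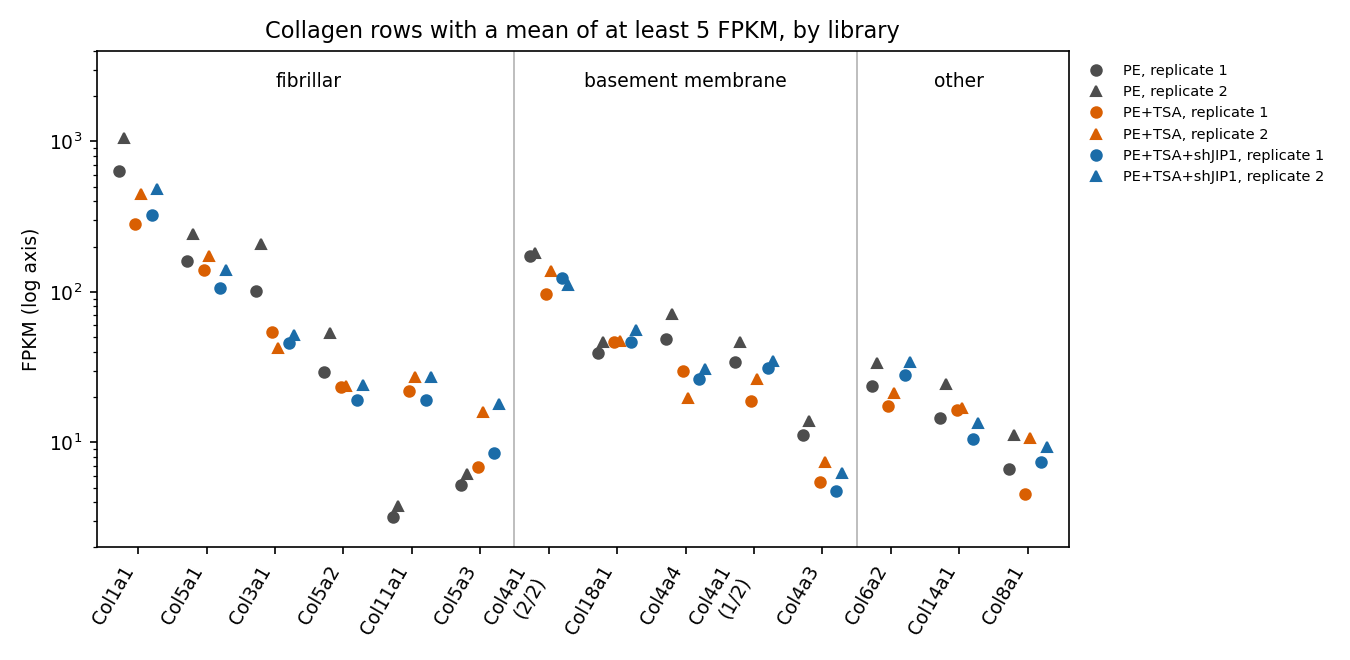
FPKM (log axis) of the 14 collagen rows with a mean of at least 5 FPKM, ordered by class and level; circles are replicate 1 and triangles replicate 2 of each group (grey PE, orange PE+TSA, blue PE+TSA+shJIP1). Col1a1 is the highest and Col11a1 stands out with both PE libraries below 4 FPKM and the other 4 libraries at 19 FPKM or above.

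With TSA, Col11a1 was the collagen chain past the threshold, higher by 7.09 times in mean FPKM, a call lost in several alternative fits (below). Other chains with higher values, among them Col5a3 and Col13a1, did not pass the test. The abundant fibrillar and type IV chains had lower values that did not pass either. Differences were tested with limma on log2(FPKM + 1) over 10359 features, a scale that understates the change of low genes, with p-values adjusted by Benjamini and Hochberg and a threshold of 0.05. Of the 17 chain rows tested, 1 rose, none fell and 16 did not pass, where 0.811% of all features passed in either direction and 0.627% upward. At an unadjusted p under 0.05 there were 8 of the 17, against 18.7% of all features. The libraries of the 2 groups did not overlap for 8 rows that were lower with TSA and 4 that were higher, where this held for 21.1% and 29.5% of all features (50.6% in either direction). The median log2 change of the chain rows was -0.35, and that of all features was 0.10. Fibroblast markers other than collagens also had lower sums in the PE+TSA libraries (1095 and 1117 against 1869 and 2366 FPKM), of which S100a4 alone gave 543 and 470 against 1097 and 1421. Thy1, the 1 fibroblast marker past the threshold, rose. Cardiomyocyte and smooth muscle marker sums were lower with TSA too, and the part of all these lists in the result was not tested. In bulk RNA fewer cells of a type and less RNA per cell cannot be told apart.

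Col11a1 encodes the alpha-1 chain of type XI collagen, a minor fibrillar collagen best known from cartilage. Under PE it had 3.2 and 3.76 FPKM, under PE+TSA 22 and 27.3, and under PE+TSA+shJIP1 19 and 27.1. All 4 libraries that received TSA lay above both PE libraries, and the PE+TSA and hairpin groups overlapped. The log2 change with TSA was 2.51 ± 0.27 (SE, n = 2 per group; limma adjusted p = 0.0307). TSA and the hairpin together differed from PE by 2.41 ± 0.27 (limma adjusted p = 0.0143), a comparison that shares the PE libraries with the first. For the hairpin on top of TSA the change was -0.11 ± 0.27 (limma adjusted p = 0.897). The TSA call was lost without PE replicate 2 (log2 change 2.60, limma adjusted p = 0.117), without PE+TSA replicate 1 or 2 (2.66 and 2.37, adjusted p = 0.102 and 0.243), without PE+TSA+shJIP1 replicate 1 or 2 (adjusted p = 0.103 and 0.1003), with only the 2 groups compared (0.0798) and with no filter (0.0934). The call against PE was lost without PE replicate 2 (0.0674) and without PE+TSA+shJIP1 replicate 1 or 2 (0.0739 and 0.099); the size of the change stayed between 2.17 and 2.79 in all alternatives of both comparisons.

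The 250 bases before the RefSeq start of Col11a1 are shown because it is the one chain past the threshold (chr2:204508886-204509135, plus strand, GRCr8, a newer build than the rn6 named for the data). Capitals mark matches on either strand to the GC box GGGCGG, a site of Sp-family factors, the CCAAT box CCAAT, and the TATA box TATAAA; none of these matches overlap one another here.
Col11a1: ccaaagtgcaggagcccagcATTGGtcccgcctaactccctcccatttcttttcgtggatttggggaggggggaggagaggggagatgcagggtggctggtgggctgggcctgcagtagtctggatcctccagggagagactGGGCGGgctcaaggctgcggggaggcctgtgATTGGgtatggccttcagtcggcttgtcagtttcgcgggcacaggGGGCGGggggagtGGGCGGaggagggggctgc
This window held 3 GC boxes, 2 CCAAT boxes and no TATA box. Over all 33469 windows of this length, 30.5% held at least one GC box, 34.0% a CCAAT box and 12.9% a TATA box. Among the 20 collagen genes with a window, 12 held a GC box, 5 a CCAAT box and 3 a TATA box. A match describes the letters and is not evidence of a bound site.

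Col3a1 and Col1a1, the chains of the main fibrils, had lower values in every TSA library. Col3a1, the single chain of type III collagen, was at 101 and 209 FPKM without TSA, 54.1 and 42.4 with it, and 46 and 51.8 once the JIP1 hairpin was present. Both PE libraries lay above the other 4, but they differed from each other by more than the gap to the TSA libraries. The log2 change was -1.58 ± 0.36 with TSA (limma adjusted p = 0.116) and -1.55 ± 0.36 for TSA and the hairpin against PE (limma adjusted p = 0.0513). Without PE replicate 1, Col3a1 passed in both comparisons (log2 change -2.11 and -2.08, limma adjusted p = 0.0327 and 0.0232), and without PE replicate 2 in neither (-1.06 and -1.03, adjusted p = 0.246 and 0.113). With a filter of 5 FPKM it passed against PE (adjusted p = 0.0472).

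Col1a1, the major chain of type I collagen and a fibroblast marker, was at 634 and 1050.3 FPKM in the PE group, 284 and 447 with TSA and 326 and 479 with the hairpin added. Again no TSA library reached either PE library. The log2 change was -1.19 ± 0.37 with TSA (limma adjusted p = 0.175) and -1.04 ± 0.37 for both treatments against PE (limma adjusted p = 0.122). Its partner in type I collagen, Col1a2, was listed at 0 in 5 libraries and at 0.127 FPKM in PE+TSA replicate 2. A 0 in this table can be a failed estimate: Rpl32, a ribosomal protein gene, was listed at 0 in 4 libraries, and Ppia, cyclophilin A, at 0 in 2. Elsewhere Rpl32 reached at most 0.836 FPKM and Ppia at most 2.18, so low values other than 0 can be failed estimates too. No change was therefore computed for Col1a2. How reads shared by similar chains or by antisense genes were counted is not stated in the labels, so values of such genes are uncertain.

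The type V chains, which join type I fibrils, did not pass in either direction. Col5a1 was at 161 and 243 FPKM under PE, 139 and 174 under PE+TSA and finally 106 and 141 under PE+TSA+shJIP1. Its PE and PE+TSA libraries overlapped, with a log2 change of -0.34 ± 0.28 (limma adjusted p = 0.538), and the hairpin libraries lay below both PE libraries (-0.69 ± 0.28, limma adjusted p = 0.159). Col5a2 was at 29.3 and 53.4 FPKM without TSA, 23.3 and 23.7 with it, and 19 and 24 once the JIP1 hairpin was present. All TSA libraries were below both PE libraries for Col5a2 (-0.73 ± 0.32 with TSA, limma adjusted p = 0.283; -0.86 ± 0.32 for both treatments, adjusted p = 0.13). Without PE replicate 1, Col5a2 passed against PE (-1.28, limma adjusted p = 0.0462).

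Col5a3, the third type V chain, had its higher values with TSA: 5.22 and 6.12 FPKM in the PE group, 6.84 and 15.8 with TSA and 8.46 and 17.9 with the hairpin added. The spread within the treated groups was wide, since replicate 2 was more than 2 times replicate 1 in each. The log2 change was 0.79 ± 0.48 with TSA (limma adjusted p = 0.415) and 1.01 ± 0.48 for both treatments (limma adjusted p = 0.212). Set against Col5a1, the ratio of FPKM of Col11a1 was 0.0199 and 0.0154 for PE, 0.158 and 0.157 for PE+TSA and 0.18 and 0.192 for PE+TSA+shJIP1. These ratios, given with no test, did not overlap between the PE libraries and the other 4. They restate the Col11a1 values above and are no separate support.

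The other fibrillar rows were low. Col27a1, a long fibrillar chain, lay between 2.95 and 4.28 FPKM in all 6 libraries. Col11a2, the second type XI chain, was at 0.0853 and 0 FPKM under PE, 0.86 and 0.349 under PE+TSA and finally 0.473 and 0.445 under PE+TSA+shJIP1. Col2a1, the cartilage chain, was at 0.0582 and 0 without TSA, 0.319 and 0.102 with it, and 0.344 and 0.189 once the JIP1 hairpin was present. For both, the PE libraries lay below the other 4, but neither row reached the level for testing and both were listed at 0 in the shallow library PE replicate 2.

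Among the basement membrane chains, 4 of the 5 rows tested had non-overlapping lower values with TSA, against 21.1% of all features, and none passed. Both listings of Col4a1 are among these 4 rows, so they do not stand for as many genes. Col4a4 and Col4a3 encode chains that assemble with Col4a5 into a type IV network known from the kidney glomerulus. Col4a4 was at 48.8 and 70.7 FPKM in the PE group, 29.7 and 19.7 with TSA and 26.3 and 30.8 with the hairpin added. Col4a3 was at 11.2 and 13.8 under PE, 5.44 and 7.39 under PE+TSA and finally 4.78 and 6.22 under PE+TSA+shJIP1. For both genes every TSA library lay below both PE libraries. The log2 change with TSA was -1.25 ± 0.29 for Col4a4 (limma adjusted p = 0.121) and -0.87 ± 0.29 for Col4a3 (limma adjusted p = 0.194). Against PE, the hairpin group differed by -1.02 ± 0.29 for Col4a4 and -1.06 ± 0.29 for Col4a3 (limma adjusted p = 0.0768 and 0.0715). Col4a4 stood at 4.37 to 5.49 times Col4a3 in FPKM in 5 libraries and at 2.67 times in PE+TSA replicate 2.

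Col4a3 and Col4a4 lie head to head on chromosome 9, with 412 bases between their RefSeq starts in GRCr8. Their 250-base upstream windows share 88 bases, read in opposite directions, and are shown because both chains had lower values with TSA and start so near each other. Capitals mark the same motifs as above.
Col4a3 (chr9:91323740-91323989, plus strand): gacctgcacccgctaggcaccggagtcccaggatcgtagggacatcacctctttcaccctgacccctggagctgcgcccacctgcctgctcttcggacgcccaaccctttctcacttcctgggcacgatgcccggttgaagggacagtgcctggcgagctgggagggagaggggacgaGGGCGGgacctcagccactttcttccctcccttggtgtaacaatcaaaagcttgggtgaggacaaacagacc
Col4a4 (chr9:91323578-91323827, minus strand): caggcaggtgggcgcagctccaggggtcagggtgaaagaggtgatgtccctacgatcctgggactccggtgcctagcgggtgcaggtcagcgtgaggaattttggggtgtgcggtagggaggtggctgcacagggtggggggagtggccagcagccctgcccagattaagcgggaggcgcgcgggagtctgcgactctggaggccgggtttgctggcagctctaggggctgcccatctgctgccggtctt
The Col4a3 window held 1 GC box, and the Col4a4 window held none of the 3 motifs.

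Col4a1, the main type IV chain of most tissues, stands on 2 rows. Listing 2 was at 172 and 182 FPKM without TSA, 96.9 and 138 with it, and 123 and 112 once the JIP1 hairpin was present. Listing 1 was at 34.4 and 46.7 in the PE group, 19 and 26.3 with TSA and 31.1 and 34.5 with the hairpin added. The table does not say what sets the 2 rows apart, and their ratio ran from 3.23 to 5.23. With TSA the log2 change was -0.61 ± 0.23 for listing 2 and -0.81 ± 0.26 for listing 1 (limma adjusted p = 0.231 and 0.179). In listing 2 all 4 libraries with TSA were below both PE libraries, and in listing 1 the PE+TSA libraries were, whereas the hairpin group reached the lower PE value (-0.28 against PE, limma adjusted p = 0.494).

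Col18a1, the basement membrane proteoglycan chain from which endostatin is cut, was at 39.2 and 46.3 FPKM under PE, 46.3 and 46.9 under PE+TSA and finally 46.7 and 55.8 under PE+TSA+shJIP1. Its log2 change was 0.13 ± 0.20 with TSA (limma adjusted p = 0.756). Its PE and PE+TSA libraries lay apart by less than the rounding of the values printed here. Col15a1, its close relative, stayed between 0 and 0.492 FPKM and was not tested.

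Of the 10 rows of other kinds, 5 were tested and none passed. Col6a2, a chain of the beaded microfibrils around muscle cells, was at 23.6 and 33.6 FPKM without TSA, 17.4 and 21.2 with it, and 28 and 34.3 once the JIP1 hairpin was present. Both PE+TSA libraries lay below the other 4. The log2 change was -0.53 ± 0.26 with TSA (limma adjusted p = 0.332) and 0.66 ± 0.26 for the hairpin on top of TSA (limma adjusted p = 0.313). Col14a1, a collagen attached to fibril surfaces, was at 14.4 and 24.3 in the PE group, 16.5 and 16.9 with TSA and 10.5 and 13.5 with the hairpin added, with PE and PE+TSA overlapping (-0.16 ± 0.30, limma adjusted p = 0.805). Col8a1, a short-chain network collagen of vessel walls, was at 6.65 and 11.3 under PE, 4.51 and 10.7 under PE+TSA and finally 7.36 and 9.35 under PE+TSA+shJIP1, so that all 3 groups overlapped (-0.27 ± 0.44 with TSA, limma adjusted p = 0.769). Without PE replicate 2 the change with TSA was 0.20 for Col14a1 and 0.07 for Col8a1, and without PE+TSA replicate 1 it was 0.28 for Col8a1.

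Col13a1, a transmembrane collagen of cell adhesions and neuromuscular junctions, followed another pattern. It was at 1.54 FPKM in the first PE library, given as 0 in the shallow second one, at 4.65 and 4.05 in PE+TSA, and at 0.348 and 1.11 in PE+TSA+shJIP1. Both PE+TSA libraries lay above the other 4. The log2 change was 1.74 ± 0.56 with TSA and -1.66 ± 0.56 with the hairpin (limma adjusted p = 0.183 and 0.252). It passed the level for testing mainly through the PE+TSA libraries. Without PE replicate 2, which listed it at 0, the change with TSA was 1.07 (limma adjusted p = 0.395).

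Col16a1, like Col14a1 a fibril-associated collagen, lay between 2.28 and 6.02 FPKM with overlapping groups. The remaining 5 rows of other kinds (Col7a1, Col9a2, Col17a1, Col23a1 and Col26a1) reached at most 1.49 FPKM in any library. Of these, Col7a1, the chain of anchoring fibrils, had the highest mean and lay at 0.653 to 1.17 FPKM. Over the 26 chain rows, 9 were listed at 0 in at least 1 library and 8 in PE replicate 2. The 14 rows with a mean of at least 5 FPKM had no 0. Col4a3bp, the matching row that is no chain, lay between 8.72 and 12.6 FPKM.

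**Figure D2:**
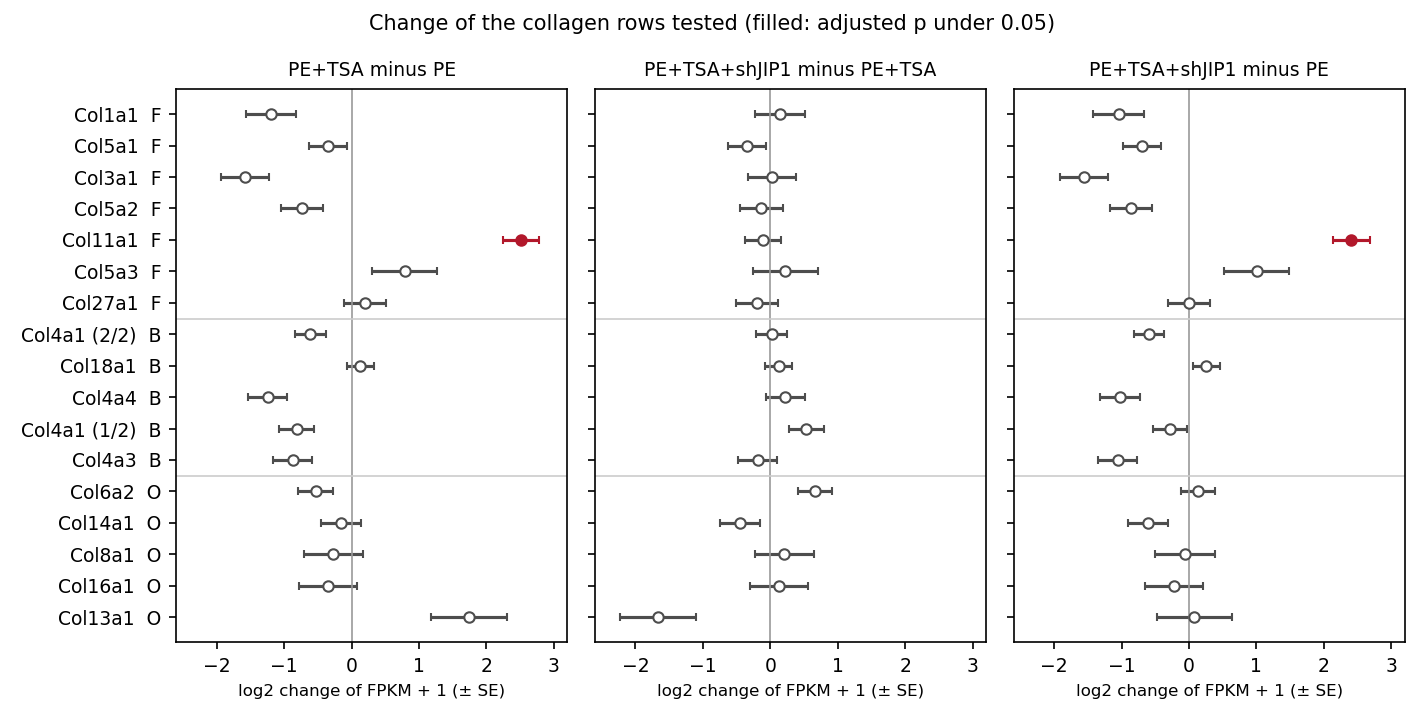
Log2 change of FPKM + 1 with its standard error for the 17 collagen rows tested, in the 3 comparisons named above the panels (F fibrillar, B basement membrane, O other; 2 libraries per group). Col11a1 is past the adjusted threshold in the outer panels, at 2.51 and 2.41, and no row is past it in the middle panel.

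With the hairpin against JIP1, in cells that also received PE and TSA, no collagen row passed the test. In limma 0 of 17 rows passed and 2 had an unadjusted p under 0.05 (Col6a2 and Col13a1, above), where 0.29% of all features passed, 0.183% upward and 0.106% downward, and 14.9% had such a p. The groups did not overlap for 2 rows that were higher with the hairpin (Col6a2 and Col4a1 listing 1) and 3 that were lower (Col13a1, Col14a1 and Col27a1), against 24.9% and 25.1% of all features (50% in either direction). Col4a1 listing 1 had a log2 change of 0.53 ± 0.26 (limma adjusted p = 0.404). The median log2 change of the chain rows was 0.03. With standard errors of 0.20 to 0.56 for single rows, this does not show that the levels were equal.

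Against PE, cells with TSA and the JIP1 hairpin had Col11a1 as the 1 chain row past the threshold, higher, where 8.27% of all features passed, 4.11% upward and 4.16% downward. At an unadjusted p under 0.05 there were 8 of 17, against 30.7% of all features. Of the other 16 rows, 8 had non-overlapping lower values, 2 (Col5a3 and Col18a1) non-overlapping higher values and 6 overlapped; over all features 26.7% were lower and 33.9% higher without overlap (60.6% in either direction). Among the lower ones were Col3a1, Col1a1, Col5a1, Col5a2, Col4a3, Col4a4, Col14a1 and Col4a1 listing 2. The median log2 change was -0.28 for the chain rows, -0.69 for the 7 fibrillar, -0.59 for the 5 basement membrane and -0.06 for the 5 other rows, against 0.10 for all features. For PE+TSA against PE these medians were -0.34, -0.81 and -0.27.

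Summed by class, fibrillar FPKM was 937 and 1570.5 under PE, 535 and 735 under PE+TSA and lastly 529 and 744 under PE+TSA+shJIP1. Basement membrane rows, with both listings of Col4a1 counted, summed to 306 and 360 without TSA, 197 and 238 with it, and 232 and 239.5 once the JIP1 hairpin was present. The other rows summed to 50.1 and 76.2, 47.2 and 58.6, and 51.4 and 64.8. The fibrillar and basement membrane sums of both PE libraries lay above those of the other 4, and the sums of other rows overlapped between groups. Col1a1 took 49.0% and 52.3% of the collagen sum in PE and 36.4% to 45.7% in the TSA libraries.

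Libraries of a group differed in collagen level in one direction. Of the 14 rows with a mean of at least 5 FPKM, replicate 2 was above replicate 1 for 14 in PE, 12 in PE+TSA and 13 in PE+TSA+shJIP1. Over all features tested this was so for 36.4%, 49.6% and 48.8%. The median log2 difference between replicates 2 and 1 was 0.51, 0.30 and 0.31 for the 14 rows, and -0.16, 0.00 and -0.01 for all features. The labels do not say what a replicate number shares, and its part in these levels was not tested.

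Markers of other cell types also differed between the groups. The summed FPKM of 11 fibroblast marker rows, collagens left out, was 1869 and 2366 in the PE group, 1095 and 1117 with TSA and 751 and 635 with the hairpin added. Of the 10 of these tested, 9 had lower and 1 a higher value with TSA (median log2 change -0.82), where 4448 of 10359 features had lower values. The groups lay apart for 7 of the lower rows and overlapped for 2, Pdgfra (-0.06) and Dpt (-1.03). Of all features, 21.1% were lower with TSA without overlap, and 50.6% lay apart in either direction. None of the 11 rows was listed at 0 in any library. Thy1, a surface protein of fibroblasts and neurons, rose with TSA from 3.29 and 1.56 FPKM to 20.9 and 24.7 (2.84 ± 0.36, limma adjusted p = 0.0373). Against PE, the hairpin group had Thy1 higher and Dcn, Vim and S100a4 lower past the threshold (limma adjusted p from 0.0143 to 0.0338). The TSA call of Thy1 was kept without PE replicate 1 and lost without any other single library (limma adjusted p from 0.1003 to 0.337), with no filter (0.1103), with only the 2 groups compared (0.0804) and with no trend in the prior variance (0.0526). The TSA calls of Acta2 and Des were lost without each single library and in the same 3 other settings. Cardiomyocyte markers summed to 21430.1 and 17403 under PE, 10956 and 6232 under PE+TSA and finally 10470.5 and 6016 under PE+TSA+shJIP1. Of 11 tested, all had lower values with TSA and none passed (median -1.14), and 3 fell against PE. Smooth muscle and pericyte markers summed to 2613 and 2175, 769 and 554, and 1353 and 1279.5; 2 of 11 fell with TSA (Acta2 and Des), and against PE 3 fell and 1 rose. Over all features 0.183% fell and 0.627% rose with TSA, and 4.16% fell and 4.11% rose against PE. Endothelial markers summed to 13.0 to 42.0 FPKM and macrophage markers to 10.2 to 17.4, and neither list, nor the Schwann cell (2 tested) or epicardial (3 tested) markers, had a row past the threshold in any comparison. Without PE replicate 2 or either hairpin library, none of the 11 marker calls against PE passed. With no filter 5 of the 11 were kept, with only the 2 groups compared 7, and with no trend in the prior variance 9. Dcn, among these 11, is also counted with the fibril partners below. The part of these marker shifts in the collagen values was not tested.

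**Figure D3:**
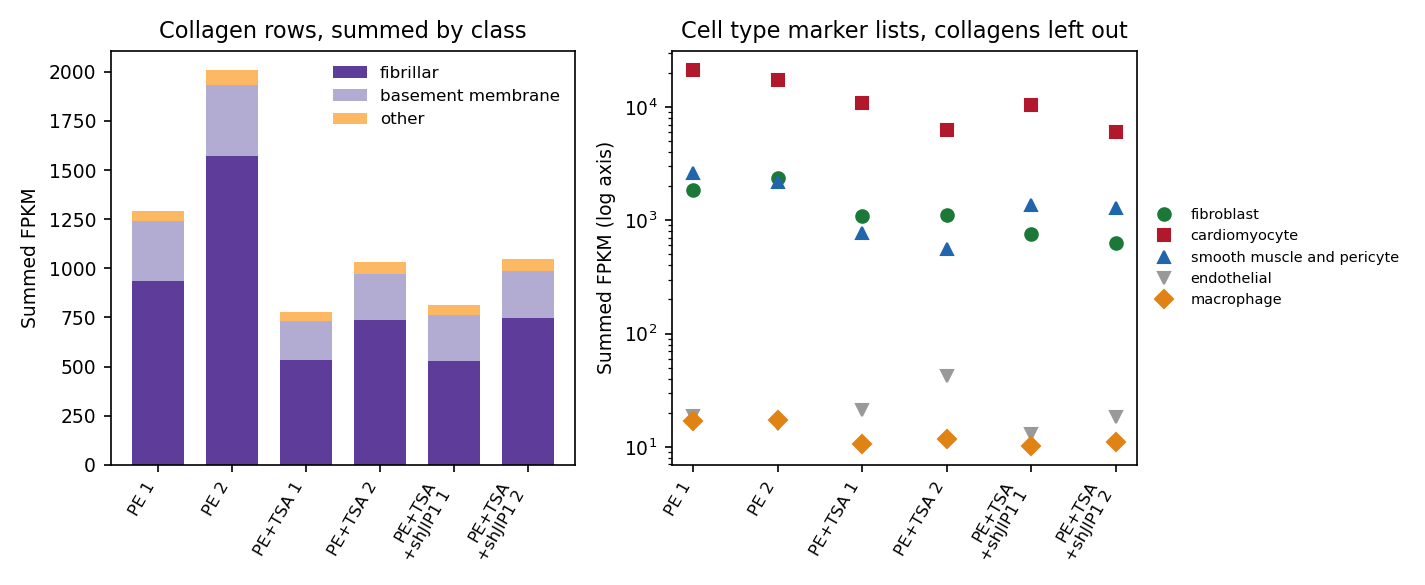
Left, summed FPKM of the 26 collagen rows by class in each library; right, summed FPKM (log axis) of 5 cell type marker lists with collagens left out. The collagen sums of PE replicates 1 and 2 (1293 and 2006) lie above those of the other libraries (779 to 1049). The same holds for the fibroblast sums (1869 and 2366, against 635 to 1117). It also holds for the cardiomyocyte, smooth muscle and macrophage sums, while the endothelial sums overlap.

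Genes that make, bind and degrade collagen were counted from 6 lists. None of their 61 rows tested passed with TSA or for the hairpin on top of TSA, where 0.811% and 0.29% of all features did. For TSA and the hairpin against PE 9 fell and none rose, where 4.16% of all features passed downward and 4.11% upward. Unadjusted p-values under 0.05 were found for 17 rows with TSA, 5 with the hairpin and 25 for both, against 18.7%, 14.9% and 30.7% of all features. The enzymes that hydroxylate and glycosylate procollagen (13 tested) had a median log2 change of -0.21 with TSA and -0.48 for both treatments. P4hb, protein disulfide isomerase and the beta subunit of prolyl 4-hydroxylase, was at 324 and 313 FPKM without TSA, 258 and 351 with it, and 70.7 and 114 once the JIP1 hairpin was present. Both hairpin libraries were thus below the other 4 (-1.82 ± 0.29 against PE, limma adjusted p = 0.0236; -1.74 ± 0.29 against PE+TSA, adjusted p = 0.0859; -0.08 ± 0.29 for TSA against PE). Leprel1, a prolyl 3-hydroxylase of basement membrane collagens, was at 17.9 and 18.6 for PE, 8.71 and 11 for PE+TSA and 4.71 and 4.66 with the hairpin, and fell against PE (-1.76 ± 0.24, limma adjusted p = 0.018). Ppib, a prolyl isomerase, was at 119 and 132, 89.4 and 99.9, and 87.8 and 71.2 FPKM in the same order, and did not pass.

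Among 9 chaperones and secretion factors, Serpinh1 and Sparc fell against PE, where 4.16% of all features fell. Serpinh1, the collagen-specific chaperone HSP47, was at 361 and 447 FPKM in the PE group, 220 and 156 with TSA and 195 and 174 with the hairpin added. Its log2 change was -1.11 ± 0.25 with TSA (limma adjusted p = 0.112) and -1.12 ± 0.25 for both treatments (limma adjusted p = 0.0466). Sparc, a matricellular collagen-binding protein, was at 1391 and 1456 under PE, 774 and 755 under PE+TSA and finally 733 and 593 under PE+TSA+shJIP1 (-1.11 ± 0.23 against PE, limma adjusted p = 0.0402). Every TSA library lay below both PE libraries for both genes. The 10 genes of propeptide cleavage and crosslinking had no row past the threshold in any comparison. Of these, Pcolce, an enhancer of procollagen cleavage, was at 89.7 and 89.7 FPKM, 63.0 and 62.0, and 60.1 and 73.6, and Lox, lysyl oxidase, was at 22.2 and 45.2, 12.8 and 24.1, and 23.2 and 28.5 with overlapping groups.

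Of 9 rows of fibril partners, 3 fell against PE: decorin and both listings of biglycan, small proteoglycans that bind fibrils (4.16% of all features fell). Dcn was at 225 and 258 FPKM without TSA, 107 and 168 with it, and 98.9 and 76.2 once the JIP1 hairpin was present (-1.46 ± 0.28 against PE, limma adjusted p = 0.0338). Bgn listing 2 was at 318 and 495, 118 and 155, and 150 and 160 (-1.35 ± 0.28 against PE, limma adjusted p = 0.0395), and listing 1, at 248 and 436, 94.1 and 117, and 119 and 119, fell too, with a log2 change of -1.46 ± 0.30 (limma adjusted p = 0.0401). Fn1, fibronectin, was at 443 and 674, 481 and 796, and 662 and 833, with overlapping groups. The 7 receptor rows tested had a median of -0.56 with TSA and none passed; Itgb1, the beta-1 integrin, was at 379 and 391 FPKM, 273 and 251, and 280 and 224, and Ddr1, a collagen-binding kinase, was at 48.2 and 38.1, 36.0 and 33.5, and 34.7 and 40.1.

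Among 13 genes of degradation, Mmp2 and Timp2 fell against PE, where 4.16% of all features fell. Mmp2, gelatinase A, was at 65.7 and 111 FPKM in the PE group, 28.7 and 39.9 with TSA and 26.8 and 28.2 with the hairpin added (-1.60 ± 0.31, limma adjusted p = 0.0338). Timp2, an inhibitor that also helps activate it, was at 129 and 150, 76.6 and 80.3, and 66.5 and 66.5 (-1.05 ± 0.18, limma adjusted p = 0.0278). Timp1, another inhibitor of matrix proteases, had its higher values with TSA: 210 and 239 FPKM under PE, 325 and 692 under PE+TSA and finally 567 and 840 under PE+TSA+shJIP1 (1.62 ± 0.40 for both treatments, limma adjusted p = 0.0577). The PE libraries of Timp1 did not overlap with the other 4. All 9 calls against PE were lost without PE replicate 2 (limma adjusted p from 0.0811 to 0.146), without PE+TSA replicate 2 (0.0502 to 0.0859) and without either hairpin library (0.0969 to 0.23); 5 of them were kept without PE replicate 1 and 1, Leprel1, without PE+TSA replicate 1. With no filter 2 of the 9 were kept (Leprel1 and Timp2), with only the 2 groups compared 3 (Dcn, Leprel1 and P4hb), and with no trend in the prior variance 2 (Leprel1 and P4hb).

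**Figure D4:**
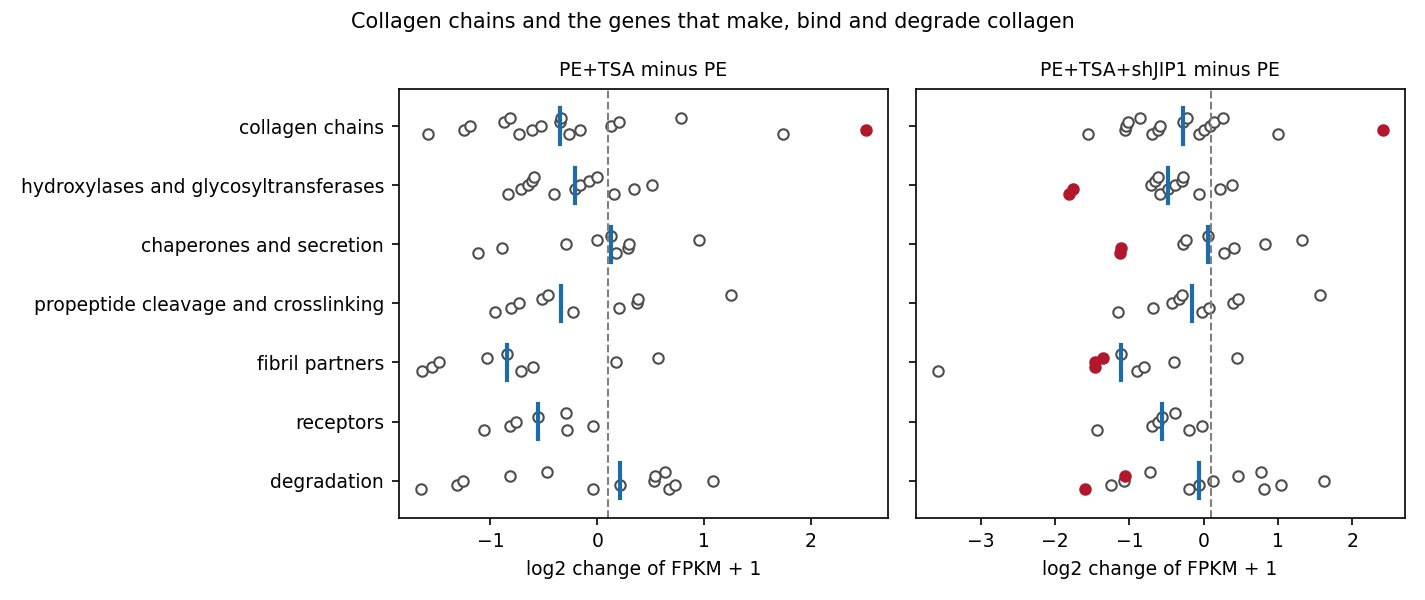
Log2 change of each tested row of the collagen chains and of 6 lists of genes that make, bind or degrade collagen, for TSA against PE (left) and for TSA with the JIP1 hairpin against PE (right). Blue bars are list medians, the dashed line is the median of all features (0.10 in both panels) and filled points passed the adjusted threshold: Col11a1 on the left, Col11a1 and 9 list rows on the right.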

How the data were processed

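RNA libraries were prepared with Illumina chemistry, per the labels' protocols. Gene-level FPKM came as 1 table from the authors, and its header names no unit. The tool Cufflinks, whose output is in FPKM, and the build rn6 come from the submitters' processing notes (per the labels), which state neither version nor role. No aligner, annotation, read filter or strandedness is given in the sources used here. Each listing of a symbol was kept as its own feature.

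Testing was limited to the 10359 of 13843 features whose 6 libraries averaged 1 FPKM or more, analysed as log2(FPKM + 1), with a pseudocount of 1. The limma package (3.58.1, R 4.3.3) estimated all 3 group means jointly, its prior variance depending on expression level; the procedure was tested on simulated data. Tests are two-sided. Relative depth came from the most frequent ratio of low values, or, for the shallow library, from the spacing of such ratios. Absolute depth is unknown, so no counting intervals were computed. The members, lists and rules were chosen with earlier results of these data known. Values in every library are given for chains with a mean of at least 5 FPKM or past the threshold, and in each list for called rows and the highest 2; those of Col13a1 and the low type II and XI chains were added after their values were seen. The alternatives were other scaling, pseudocount, filters, fits, a replicate block and leaving out each library.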

Additional observations from a re-analysis of the deposited data

How the results depend on the processing

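The 3 comparisons were recomputed under 14 alternatives, each changing 1 choice. The median log2 change of all features with TSA was 0.10 in the reported fit, 0.05 after scaling by trimmed means and -0.02 after quantile normalization, and the median of the collagen rows was -0.35, -0.40 and -0.55. The number of collagen rows called with TSA was 1, and 0 with no filter or with only the 2 groups compared. It ranged from 0 to 2 over leaving out each library, where PE replicate 1 gave 2. For TSA and the hairpin against PE it was 1, and 2 with a filter of 5 FPKM, and from 0 to 3 over leaving out each library, where again PE replicate 1 gave the highest. For the hairpin on top of TSA it was 0 in all 14. Over all features, 84 passed with TSA, 3 with no filter, 7 with only the 2 groups compared, 36 with no trend in the prior variance, and from 6 to 250 over leaving out each library. For the hairpin on top of TSA 30 passed, 0 with no filter, 2 with no trend, and from 8 to 19 over leaving out each library. For TSA and the hairpin against PE 857 passed, 374 with no filter, 372 with only the 2 groups compared, and from 18 to 984 over leaving out each library. The cause of these shifts was not tested. Where 1 library of a group was left out, the lone sample was assumed to vary like the other groups.

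Among the log2 changes printed above, some near 0 changed sign when 1 library was left out. With TSA these included Col14a1 (-0.51 to 0.20), Col8a1 (-0.81 to 0.28) and P4hb (-0.30 to 0.14). For the hairpin on top of TSA they included Col11a1 (-0.35 to 0.14). Pdgfra, at -0.06 with TSA, changed sign without PE replicate 2. Both its PE+TSA libraries (4.68 and 5.86 FPKM) lay above PE replicate 1 (3.98). Over all 17 collagen rows, the direction differed in some alternative for 4 with TSA, 10 with the hairpin and 5 for both against PE.

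With the replicate number as a block, 1 collagen row was called with TSA and 2 for both treatments against PE, the second being Col1a1 (limma adjusted p = 0.0295). Over all features the block gave 28 with TSA and 18 with the hairpin. For both treatments against PE, 8.27% of all features passed in the fit without the block, and the share under the block is not given here. Differences between replicates 2 and 1 correlated between groups at 0.0735, 0.0396 and 0.122 across 10359 features, so the numbers were not treated as pairing the samples. What they share is not given. Among the 17 collagen rows tested, these differences had the same sign between groups for 14, 14 and 13 rows, and a shared part in them was not tested. Among the markers, Thy1 did not pass with TSA under the block (adjusted p = 0.0697). Depth limits the low chains most, since PE replicate 2 was estimated to be 20.8 times shallower than PE replicate 1.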
